A study of Mus musculus with 8 samples.

Results

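The interferon-stimulated genes are genes whose transcription rises when a cell receives an interferon. A list of 44 such symbols was used, which applied no cut on measured values but was drawn up with earlier results of these data known. All 44 were present among the 54146 genes of the data, and 38 had enough counts to be tested. They were measured by RNA-seq in EL4, a mouse T lymphoblast line that makes its own GATA3, carried in 4 forms. The control line, GFP + Plum, expressed only the fluorescent proteins GFP and mPlum. In T-bet + Plum, FLAG-tagged T-bet took the place of GFP, in GFP + GATA3, HA-tagged GATA3 accompanied GFP, and T-bet + GATA3 expressed both tagged factors. All cells were stimulated for 4 h with phorbol 12-myristate 13-acetate (PMA) at 50 ng/ml together with ionomycin at 1 μM, so every group carries a stimulus that itself switches on cytokine genes, and values before stimulation were not analysed here. Each form is 1 retrovirally transduced and drug-selected line, and its 2 libraries are harvests of that line on different days, so p-values measure the spread between harvests and not between independently made lines. The libraries held 8038565 to 16003519 estimated counts, the lowest in T-bet + Plum replicate 1. The introduced factors followed the labels, with Tbx21 (T-bet) at 129 to 160.1 CPM (counts scaled to a common library size) in the T-bet lines and 1.78 to 3.59 CPM in the other lines, and Gata3 above 160 CPM only where HA-GATA3 was introduced. Gata3 was lower with T-bet in both GATA3 states, at 25.8 and 34.9 in T-bet + Plum against 39.8 and 53.3 CPM in GFP + Plum and at 204 and 165 in T-bet + GATA3 against 283 and 326 CPM in GFP + GATA3, and it fell in the average T-bet effect, that is, in both T-bet lines against both others (log2 FC -0.67 ± 0.14, FDR = 0.0174, with the SE after the log2 fold change, FC, and FDR for the false discovery rate). The summed CPM of 8 T cell markers was 1915 to 2328 in libraries without T-bet and 1820 to 2260 in those with it, although Cd247, which encodes the CD3 zeta chain, reached at most 0.684 CPM. Single T cell markers did shift. Of the 7 tested, 2 rose and 0 fell in the average T-bet effect, with log2 FCs of at most 1.52 (8.55% of all genes tested rose). Of the defining markers of other cells, Cd79b, Csf1r, Adgre1, Fcgr1, Siglech, Col1a2, Epcam and Krt18 were at or under 3 counts in every library, and the summed CPM was 0.324 to 1.24 for 4 B cell markers, 0.0634 to 1.08 for 5 fibroblast or epithelial markers and 2.49 to 4.46 for 6 macrophage markers. The sum of 4 dendritic cell markers was 6.19 to 10.1 CPM without T-bet and 2.39 to 5.62 CPM with it. Of these 10 macrophage and dendritic markers 5 were tested, and Flt3 (log2 FC -1.85 ± 0.32, FDR = 0.00652) and Lyz2 (log2 FC -2.58 ± 0.47, FDR = 0.00837, at 0.761 CPM or less in every library) fell in the average T-bet effect. The part of these shifts in the results was not tested.

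Interferons act through paired receptors and JAK kinases. Type I and III interferons lead to a complex with STAT2 and IRF9 that binds interferon-stimulated response elements (ISRE), whereas interferon gamma, the signature cytokine of TH1 cells, acts through gamma-activated sites (GAS) and through the factor IRF1, which again acts at ISRE. The products of the target genes sense foreign nucleic acids, degrade RNA, block viral entry or modify proteins, and they feed back on the pathway. The comparison therefore asks whether lines that make Ifng also show these target genes at higher levels 4 h after stimulation. The lines that make Ifng are also the lines given T-bet, so a response to interferon and other effects of T-bet cannot be told apart here.

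Ifng mRNA was close to the detection floor without T-bet and abundant with it. In CPM, which corrects each library for its size but not for gene length, Ifng stood at 0.186 and 0.698 in GFP + Plum, 0.574 and 0.507 in GFP + GATA3, 3969.9 and 2788 in T-bet + Plum and 3476 and 3014 in T-bet + GATA3. All T-bet libraries lay above all others, with an average T-bet effect of log2 FC 12.71 ± 0.29 (SE, FDR = 3.54e-07). The average T-bet effect compares the 4 libraries of both T-bet lines with the 4 libraries of both lines without T-bet, and genes were called at a false discovery rate (FDR) of at most 0.05 over the 14791 genes tested. The 2 chains of the interferon gamma receptor differed. Ifngr1, the ligand-binding chain, was at 28.6 and 23.02 in GFP + Plum, 27.5 and 27.3 in GFP + GATA3, 28.7 and 24.8 in T-bet + Plum and 25.2 and 24.1 in T-bet + GATA3, with overlapping groups (log2 FC -0.05 ± 0.11, FDR = 0.804). Ifngr2, the signalling chain, was at 6.75 and 4.38 in GFP + Plum, 6.99 and 14.01 in GFP + GATA3, 0.124 and 0.137 in T-bet + Plum and 0.973 and 0.333 in T-bet + GATA3. It was lower in every T-bet library than in any other and fell by 4.70 ± 0.45 on the log2 scale (FDR = 4.16e-04), with 1 to 9 estimated counts left in each T-bet library.

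Of the 15 genes listed for interferon receptors and signalling, 13 passed the filter, and 3 rose and 1 fell with T-bet on average (8.55% of all genes tested rose and 6.61% fell). The risers besides Ifng were the kinases Jak2 (log2 FC 1.27 ± 0.12, FDR = 3.47e-04) and Tyk2 (log2 FC 1.01 ± 0.16, FDR = 0.00441), whose groups did not overlap. Jak1, the type I interferon receptor genes Ifnar1 and Ifnar2 and the feedback inhibitor Socs1 were not called, with log2 FCs of -0.01, -0.103, -0.22 and 1.098 (FDR = 0.0596 for Socs1). Transcripts of other interferons were near the limit of detection. Of 19 type I and III interferon genes, 15 were at 0 in every library, 18 never exceeded 3 counts, and the highest value was 5 counts for Ifne in a library without T-bet. Ifnb1 reached at most 2 counts. A floor of 3 counts corresponds to 0.188 to 0.373 CPM at these depths.

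**Figure D1:**
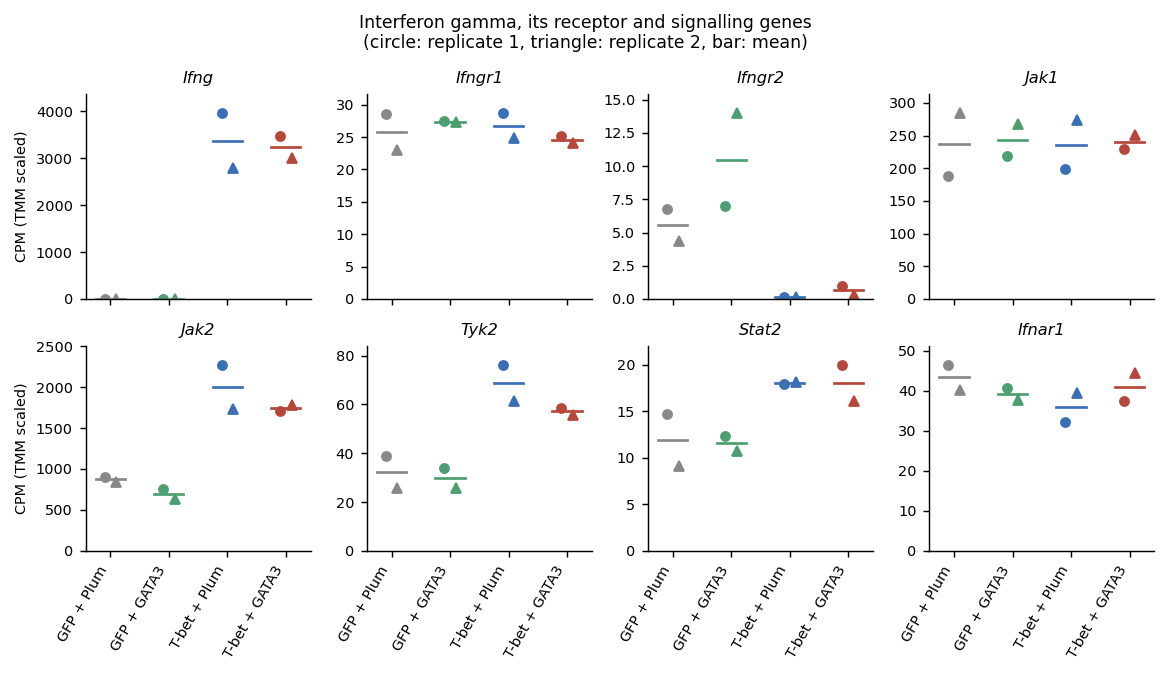
CPM (y axis, linear from 0) of interferon gamma, its receptor chains and signalling genes in the 4 lines (x axis), with circles for replicate 1, triangles for replicate 2 and bars for the mean of both. Ifng, Jak2, Tyk2 and Stat2 were higher in every T-bet library, Ifngr2 was lower in every T-bet library (0.124 to 0.973 against 4.38 to 14.01 CPM), and the points of Ifngr1, Jak1 and Ifnar1 overlapped.

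Of the 44 interferon-stimulated genes, 21 rose and 0 fell in the average T-bet effect (edgeR). The 21 are 47.7% of the list, whereas 15.2% of all genes tested were called in this comparison, 8.55% higher and 6.61% lower. The list was drawn up with earlier results of these data known, so these shares are not a blind comparison. Among the members, 26 had an unadjusted p under 0.05, all 26 of them higher with T-bet (29.2% of all genes had such a p and 15.5% were higher), and DESeq2 also called 21. The median log2 FC over the 38 members tested was 0.99, against 0.02 over all genes. Of these 38, 5 (Irf7, Ifit1, Zbp1, Mx2 and Cxcl9) reached the filter only through the T-bet libraries, which requires them to differ. Over the other 33 members the median was 0.83 and 18 rose. In 22 of the 38 members tested, Irf7, Zbp1 and Cxcl9 among them, every T-bet library lay above every library without T-bet. In 0 members every T-bet library lay below, while such separation held for 12.5% and 10.2% of all genes tested. The median was 1.09 among replicate 1 libraries and 0.90 among replicate 2 libraries. Changes were modest beside that of Ifng, since 8 members were called and also exceeded the log2 FC of 1.5 used in the study as a second threshold (4.5% of all genes met both criteria, in either direction). A further pair, Oas3 and Ifit1, exceeded it without a call. Irf7, Zbp1 and Cxcl9 are among the 8, and they and Ifit1 reached the filter only through the T-bet libraries. In bulk RNA, more cells responding and more RNA per cell cannot be told apart.

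**Figure D2:**
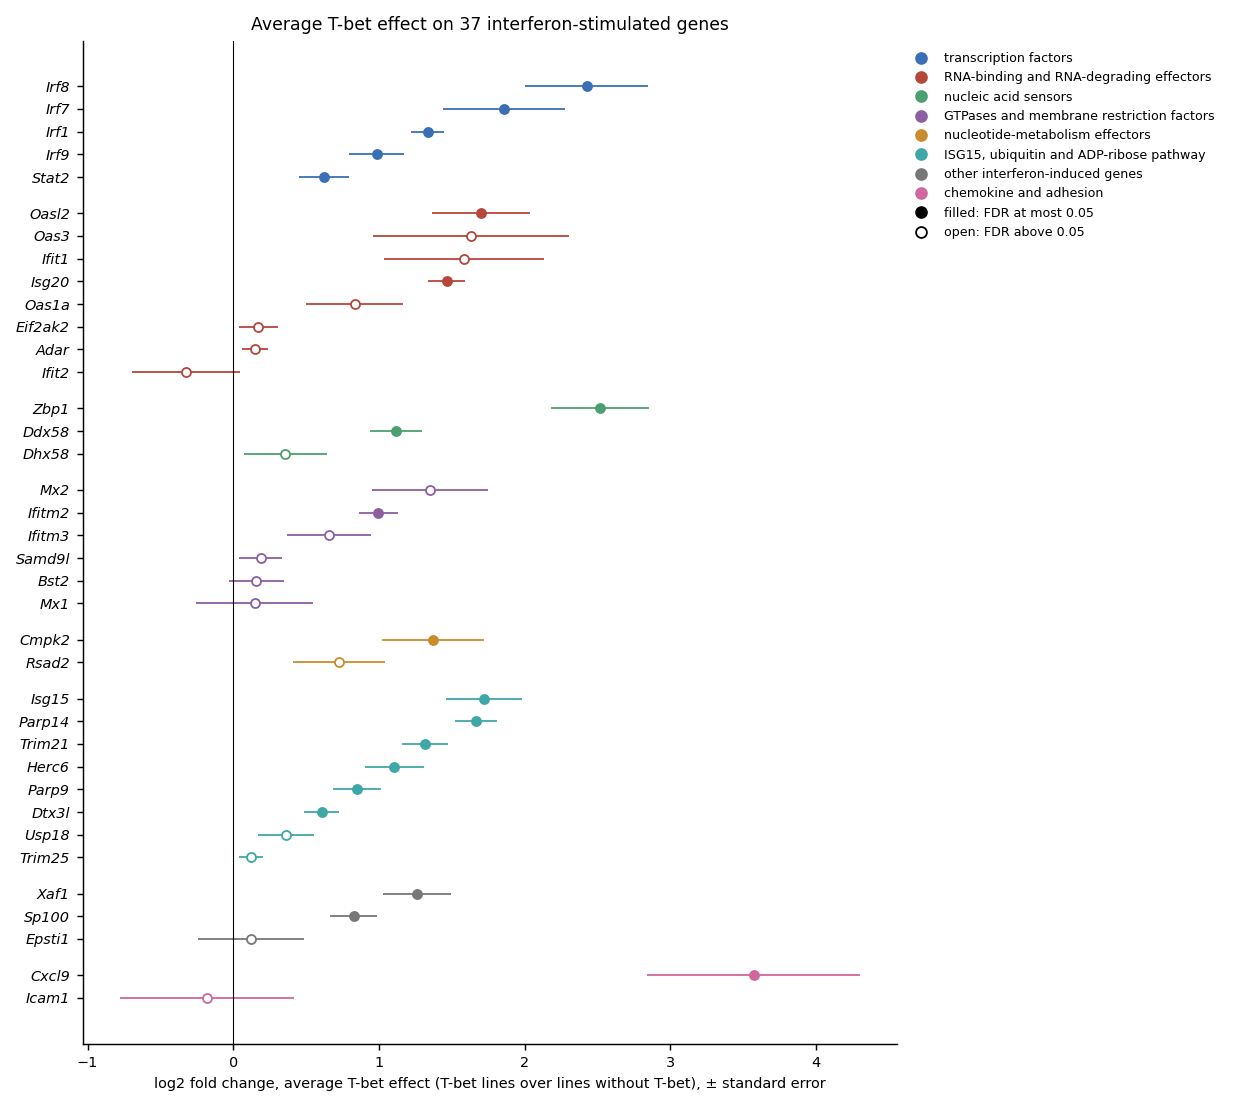
Log2 fold change of the average T-bet effect (x axis) with its standard error for 37 members, grouped and coloured by role, filled where the FDR was at most 0.05. All 5 transcription factors were called, although Irf7 reached the filter only through the T-bet libraries. In the ISG15, ubiquitin and ADP-ribose group 6 of 8 genes were called, against 15.2% of all genes tested. The RNA-binding effectors spread from -0.32 for Ifit2 to 1.70 for Oasl2, and Ifitm1 is left out because it had no counts in GFP + GATA3.

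All 5 transcription factors of the list rose (8.55% of all genes tested rose), although Irf7 reached the filter only through the T-bet libraries. Irf1 (ENSMUSG00000018899.16, chr11:53770014-53778374, plus strand), the factor that interferon gamma induces directly, was at 8.97 and 8.63 in GFP + Plum, 13.7 and 14.6 in GFP + GATA3, 29.2 and 27.7 in T-bet + Plum and 31.1 and 24.9 in T-bet + GATA3. Every T-bet library exceeded every other library, and the T-bet lines lay 2.52-fold higher (log2 FC 1.33 ± 0.11, FDR = 2.38e-04), the smallest p of any member. Irf8, an interferon-gamma-inducible factor best known from myeloid and B cells, was at 25.9 and 10.1 in GFP + Plum, 27.6 and 10.5 in GFP + GATA3, 99.4 and 69.1 in T-bet + Plum and 162 and 71.6 in T-bet + GATA3. Its groups were also separate (log2 FC 2.43 ± 0.42, FDR = 0.00727), but replicate 1 exceeded replicate 2 in all 4 lines, and within replicate 1 T-bet + GATA3 held 162 CPM against 27.6 in GFP + GATA3. Irf9, which with STAT2 takes part in the type I interferon complex, was at 9.34 and 6.41 in GFP + Plum, 8.04 and 8.31 in GFP + GATA3, 20.8 and 13.5 in T-bet + Plum and 16.1 and 13.7 in T-bet + GATA3. Its change was smaller (log2 FC 0.99 ± 0.19, FDR = 0.0109), as was that of its partner Stat2, at 9.07 to 14.7 CPM without T-bet and 16.2 to 20.005 with it (log2 FC 0.62 ± 0.17, FDR = 0.0444). Irf7, the amplifier of type I interferon transcription, had few counts, at 0.186 and 0.507 in GFP + Plum, 0.479 and 1.01 in GFP + GATA3, 2.24 and 1.71 in T-bet + Plum and 2.38 and 1.397 in T-bet + GATA3. All T-bet libraries were higher (log2 FC 1.86 ± 0.42, FDR = 0.0211), but the call was lost in 4 of 8 fits that left out a library (FDR = 0.0678 without GFP + GATA3 replicate 1, 0.0723 without T-bet + GATA3 replicate 1, and 0.0707 and 0.0575 without T-bet + Plum replicate 1 and 2). That of Stat2 held in 1 of the 8, without GFP + Plum replicate 1, and otherwise its FDR lay between 0.0585 and 0.155.

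Promoter sequence was available for 35 of the 44 members, as 300 bases from 250 before to 50 after each start site in RefSeq (GRCm38.p6). It was searched on both strands for the ISRE core (GAAA, any 2 bases, GAAA), the GAS core TTCNNNGAA (the same on both strands), the T-box core AGGTGTGA and the GATA core AGATAA. An ISRE match lay in 14 of the 35 members (40.0%) and in 3.99% of all 27025 genes with a window, and a GAS match in 10 (28.6%) and 9.55%. The T-box core was found in 0 members (1.48% of all genes) and the GATA core in 5 (14.3% of members, 12.7% of all genes). Where a gene had several start sites, a match at any of them counted. Of 18 called members with a window 5 held an ISRE and 3 a GAS, and of the 17 others 9 held an ISRE and 7 a GAS. These 17 include Ifit3, Oasl1, Ifih1 and Ifi44, which had too few counts to be tested, and Ifit3 and Ifih1 are among the 9. The stretches below are the 200 bases before the start of 5 members that rose and 2 others, Bst2 (not called) and Ifit3 (not tested). They are shown because both sets carry the elements, 5′ to 3′ along the gene's strand with ISRE and GAS matches in capitals. The matches in Bst2 overlap each other, as do those in Isg15.
Irf1, chr11:53769814-53770013, plus strand: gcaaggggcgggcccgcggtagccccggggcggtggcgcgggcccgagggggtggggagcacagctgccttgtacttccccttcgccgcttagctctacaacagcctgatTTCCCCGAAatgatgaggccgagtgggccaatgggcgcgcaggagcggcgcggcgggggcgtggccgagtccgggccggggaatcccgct
Irf8, chr8:120736158-120736357, plus strand: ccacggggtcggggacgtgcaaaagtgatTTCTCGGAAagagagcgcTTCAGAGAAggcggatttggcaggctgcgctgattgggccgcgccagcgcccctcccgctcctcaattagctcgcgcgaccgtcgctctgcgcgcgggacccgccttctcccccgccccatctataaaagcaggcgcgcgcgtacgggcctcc
Isg20, chr7:78913224-78913423, plus strand: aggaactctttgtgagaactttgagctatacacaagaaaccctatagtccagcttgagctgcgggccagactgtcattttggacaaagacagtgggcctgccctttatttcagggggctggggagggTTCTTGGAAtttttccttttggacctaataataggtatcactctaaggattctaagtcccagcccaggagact
Ifitm2, chr7:140955962-140956161, minus strand: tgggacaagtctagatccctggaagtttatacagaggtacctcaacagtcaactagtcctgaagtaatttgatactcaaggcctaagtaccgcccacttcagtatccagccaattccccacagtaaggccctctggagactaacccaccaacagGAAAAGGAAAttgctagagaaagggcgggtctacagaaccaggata
Isg15, chr4:156200819-156201018, minus strand: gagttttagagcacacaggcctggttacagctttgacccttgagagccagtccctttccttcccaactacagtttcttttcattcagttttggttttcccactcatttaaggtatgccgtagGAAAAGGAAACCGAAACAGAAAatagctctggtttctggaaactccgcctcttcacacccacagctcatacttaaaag
Bst2, chr8:71537473-71537672, minus strand: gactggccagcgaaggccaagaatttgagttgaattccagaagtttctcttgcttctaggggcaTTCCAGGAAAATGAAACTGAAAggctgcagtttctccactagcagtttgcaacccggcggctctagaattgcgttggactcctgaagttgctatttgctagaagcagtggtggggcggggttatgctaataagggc
Ifit3, chr19:34583329-34583528, plus strand: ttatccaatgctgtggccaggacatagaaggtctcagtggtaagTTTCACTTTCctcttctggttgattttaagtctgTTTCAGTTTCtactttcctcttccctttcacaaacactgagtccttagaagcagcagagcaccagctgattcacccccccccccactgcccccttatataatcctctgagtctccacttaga
In Irf1 the GAS match lay 90 to 82 bases before the start, in Isg20 it lay 73 to 65 bases before it, and Irf8 held a pair. Ifitm2 had a single ISRE match at 46 to 37 bases and Isg15 had 3 overlapping ones between 78 and 57 bases before the start. Trim21 instead carried an overlapping pair of ISRE matches just after its start (chr7:102565454-102565469, minus strand), which read GAAACTGAAAGTGAAA. Ifit3, with an ISRE match at 156 to 147 and another at 122 to 113 bases before its start, had at most 5 counts in any library.

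Levels of the members spanned a wide range. On the TPM scale, which corrects for transcript length and allows genes to be compared, 8 members had a mean above 10 over the 8 libraries, 22 lay between 1 and 10, and 14 were below 1. The highest were the membrane proteins Ifitm2 (151 TPM, range 86.6 to 242) and Ifitm3 (146, 64.1 to 271), followed by Bst2 (58.5, 45.9 to 78.5), Irf8 (24.1, 4.33 to 58.5), Isg20 (21.9, 7.53 to 40.4) and Adar (20.7, 17.7 to 23.6). Trim25 and Irf1 came next with 13.1 and 12.9 TPM. From Ifitm2 to Adar each gene's range overlapped that of the next, so these ranges alone do not set the order of neighbours. Within every library, however, Ifitm2 and Ifitm3 both lay above Bst2, and Adar lay above Trim25 (11.6 to 14.5 TPM). At the other end Oas2, Ifih1 and Ifi44 were at or under 3 counts in every library, and Ifit3, Oasl1 and Rtp4 also failed the filter. Ifih1, the gene of the RNA sensor MDA5, had 1 count in T-bet + Plum replicate 2 and none elsewhere. Rtp4, whose product restricts flaviviruses, had 1 to 3 counts in each library without T-bet and 4 to 8 in each with it.

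**Figure D3:**
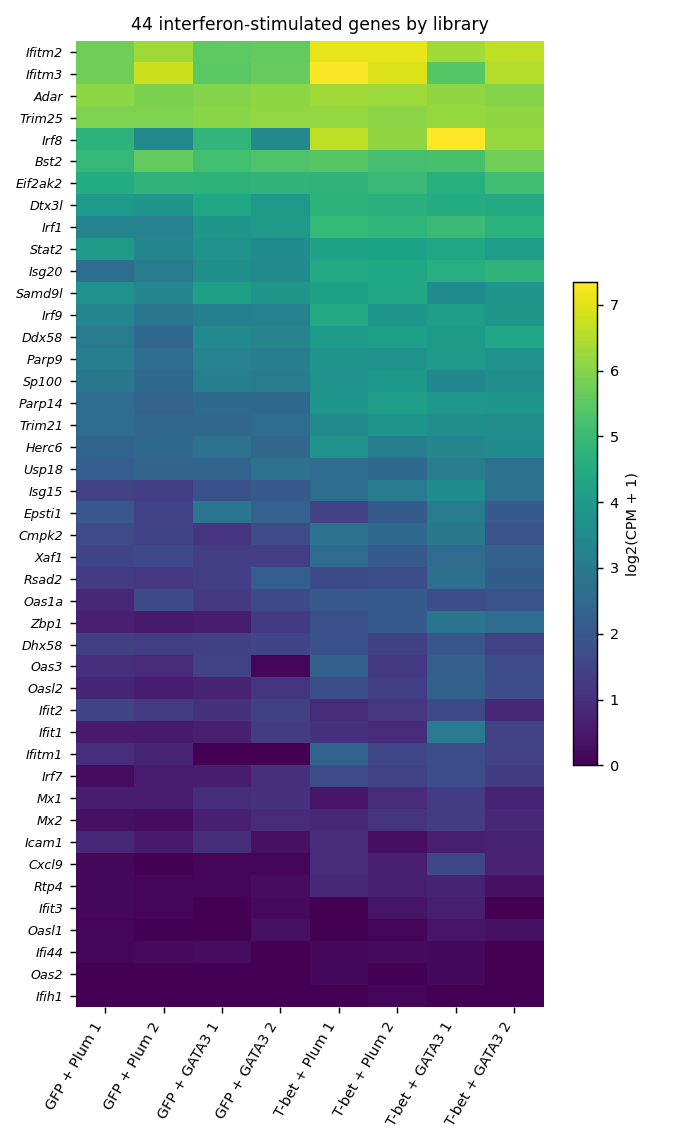
Log2(CPM + 1) (colour) of all 44 members (rows, ordered by mean) in the 8 libraries (columns). The highest rows, Ifitm2 and Ifitm3, varied between the T-bet lines as well as between lines with and without T-bet, the lowest 6 rows are the members that failed the filter, and Ifitm1 was at 0 in both GFP + GATA3 libraries.

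In the ISG15, ubiquitin and ADP-ribose pathway 6 of 8 genes rose, where 8.55% of all genes tested did. Parp14 (ENSMUSG00000034422.14, chr16:35832874-35871544, minus strand), an ADP-ribosyltransferase, was at 4.89 and 4.06 in GFP + Plum, 4.79 and 4.44 in GFP + GATA3, 13.6 and 16.4 in T-bet + Plum and 13.9 and 13.8 in T-bet + GATA3. The 4 T-bet libraries lay close together and far above the others (3.18-fold, log2 FC 1.67 ± 0.15, FDR = 2.65e-04). Trim21, a ubiquitin ligase and cytosolic antibody receptor, was at 4.95 and 4.38 in GFP + Plum, 4.403 and 5.01 in GFP + GATA3, 10.2 and 13.6 in T-bet + Plum and 11.6 and 11.3 in T-bet + GATA3, again without overlap (log2 FC 1.32 ± 0.16, FDR = 0.001301). Isg15, a ubiquitin-like modifier, was at 1.73 and 1.52 in GFP + Plum, 2.58 and 3.11 in GFP + GATA3, 5.102 and 7.18 in T-bet + Plum and 10.9 and 5.72 in T-bet + GATA3. Its lowest T-bet library (5.102 CPM) exceeded the highest of the others (3.11 CPM), a gap smaller than the spread among the T-bet libraries (log2 FC 1.72 ± 0.26, FDR = 0.00387). The ligase Herc6, which attaches ISG15 in mice, was at 4.15 to 5.65 CPM without T-bet and 7.795 to 12.7 with it (log2 FC 1.11 ± 0.20, FDR = 0.00868). Parp9 and Dtx3l, which form a complex of ADP-ribosyltransferase and ubiquitin ligase, rose less (log2 FC 0.85, FDR = 0.0115 and log2 FC 0.61, FDR = 0.0119), and both calls were lost without GFP + GATA3 replicate 2 (FDR = 0.0539 and 0.0574). Their exons overlap on opposite strands and the strand setting of the counting was not stated, so their reads may be shared. Usp18, the protease that removes ISG15 and dampens the type I receptor, had a log2 FC of 0.36 ± 0.19, and Trim25, which activates RIG-I, one of 0.12 ± 0.08. Neither was called (FDR = 0.2604 and 0.363).

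**Figure D4:**
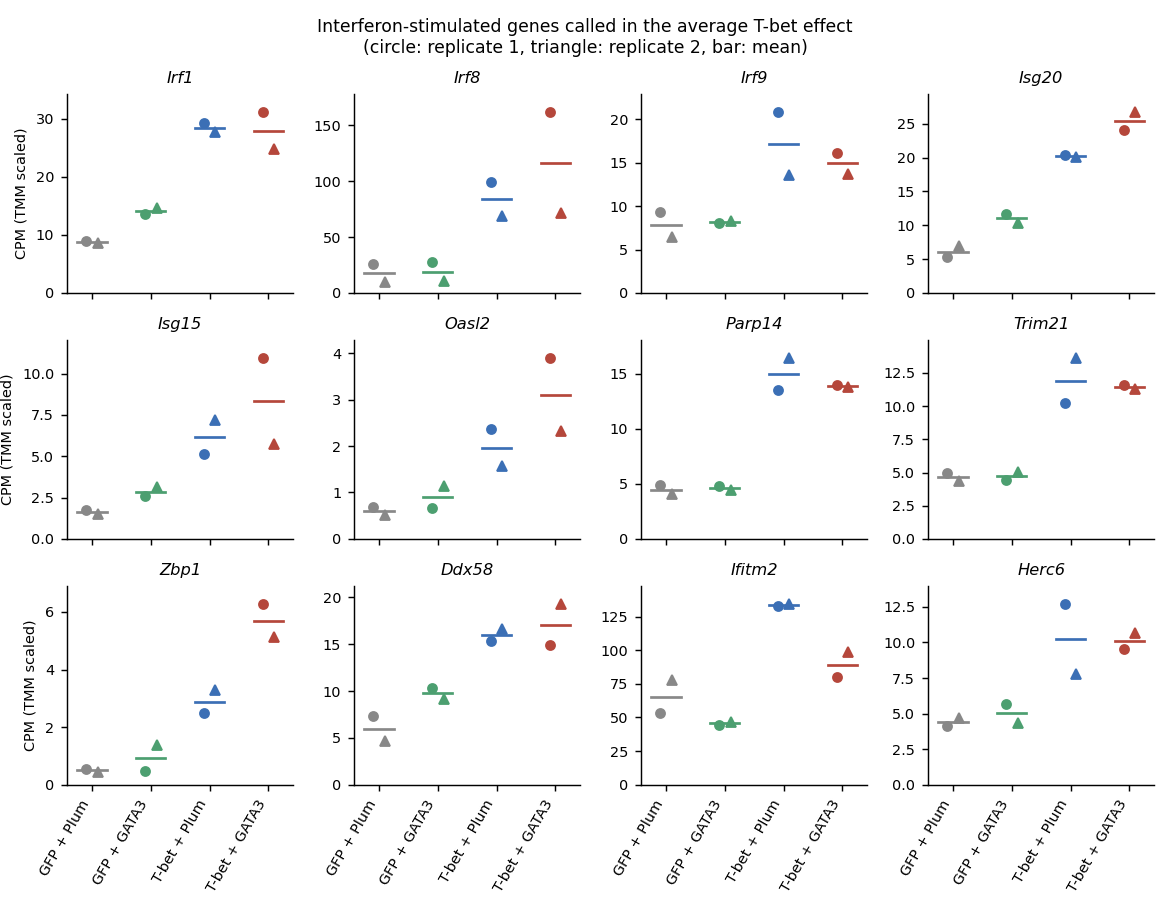
CPM (y axes, linear from 0) of 12 members that were called in the average T-bet effect, in the 4 lines (x axis), with circles for replicate 1, triangles for replicate 2 and bars for the mean. In each panel the 4 T-bet points lie above the 4 others, and in Irf1, Isg20, Isg15 and Ddx58 the GFP + GATA3 points also lie above both GFP + Plum points.

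In the RNA-binding and RNA-degrading group of antiviral effectors 2 of 11 genes rose, and 8 of the 11 were tested (8.55% of all genes tested rose). Isg20 (ENSMUSG00000039236.18, chr7:78913424-78920396, plus strand), a 3′ to 5′ exonuclease, was at 5.26 and 6.98 in GFP + Plum, 11.7 and 10.3 in GFP + GATA3, 20.4 and 20.04 in T-bet + Plum and 24.01 and 26.7 in T-bet + GATA3. It rose 2.76-fold without overlap (log2 FC 1.47 ± 0.13, FDR = 2.83e-04). Oasl2, a member of the 2′-5′-oligoadenylate synthetase family, was low, at 0.507 to 1.14 CPM without T-bet and 1.57 to 3.89 with it (log2 FC 1.70 ± 0.34, FDR = 0.0124). Oas1a, Oas3 and Ifit1 had positive log2 FCs of 0.83, 1.63 and 1.59 that were not called (FDR = 0.137, 0.151 and 0.09505). Ifit1, which binds uncapped viral RNA, was highest in T-bet + GATA3 replicate 1, with 7.14 CPM against at most 1.66 in any other library. Ifit2 had a log2 FC of -0.32 ± 0.37. The kinase gene Eif2ak2 (PKR) and the RNA editor gene Adar were expressed in all libraries, at 22.3 to 32.98 and 58.2 to 77.2 CPM, with log2 FCs of 0.17 ± 0.13 and 0.15 ± 0.09 and overlapping groups.

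Among the nucleic acid sensors 2 of 4 rose (8.55% of all genes tested rose), of which Zbp1 reached the filter only through the T-bet libraries. Zbp1, a sensor of Z-form nucleic acids, was at 0.557 and 0.444 in GFP + Plum, 0.479 and 1.395 in GFP + GATA3, 2.49 and 3.28 in T-bet + Plum and 6.27 and 5.12 in T-bet + GATA3. It lay 5.74-fold higher in the T-bet lines (log2 FC 2.52 ± 0.34, FDR = 0.00203), with both T-bet + GATA3 libraries above both T-bet + Plum libraries. Ddx58, which encodes RIG-I, was at 7.302 and 4.63 in GFP + Plum, 10.3 and 9.19 in GFP + GATA3, 15.3 and 16.6 in T-bet + Plum and 14.9 and 19.3 in T-bet + GATA3, and its groups did not overlap (log2 FC 1.12 ± 0.18, FDR = 0.00436). Dhx58 (LGP2) was not called (log2 FC 0.36 ± 0.28, FDR = 0.4599). Of 11 adaptor genes that act with such sensors, 7 passed the filter, and Mavs (log2 FC 0.71, FDR = 0.00138), Myd88 (log2 FC 0.61, FDR = 0.0268) and the kinase gene Ikbke (log2 FC 1.39, FDR = 0.00115) rose while none fell. Among all genes tested, 8.55% rose and 6.61% fell.

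Among the GTPases and membrane restriction factors 2 of 7 rose (8.55% of all genes tested rose). Ifitm2 (ENSMUSG00000060591.9, chr7:140954837-140955987, minus strand), which hinders fusion of viruses with cell membranes, was at 53.2 and 77.95 in GFP + Plum, 44.7 and 46.5 in GFP + GATA3, 133 and 134 in T-bet + Plum and 80.02 and 98.4 in T-bet + GATA3. The T-bet libraries were all higher (log2 FC 1.00 ± 0.13, FDR = 0.00206), and within either T-bet state both libraries with HA-GATA3 lay below both without it, a difference that was called in neither state. Ifitm3 was as abundant but spread widely, at 53.3 and 109.9 in GFP + Plum, 43.2 and 48.8 in GFP + GATA3, 155 and 124 in T-bet + Plum and 41.6 and 91.8 in T-bet + GATA3. T-bet + GATA3 replicate 1 lay below every library without T-bet, the groups overlapped, and no call was made (log2 FC 0.66 ± 0.29, FDR = 0.172). Ifitm1 had 16 and 11 counts in GFP + Plum, 0 in both GFP + GATA3 libraries, 33 and 29 in T-bet + Plum and 22 and 26 in T-bet + GATA3. It rose in the average T-bet effect (FDR = 0.00248), and T-bet + GATA3 was at least 8.62-fold higher than GFP + GATA3 when the latter was set to 3 counts in each library. Mx2 (log2 FC 1.35 ± 0.40, FDR = 0.0564), Mx1, Bst2 and Samd9l were not called. Bst2, which tethers budding virus to the cell, was at 28.5 to 53.3 CPM over all libraries with a log2 FC of 0.16 ± 0.19. The Ifitm, Ifit, Oas and Mx genes have close relatives, between which kallisto divides shared reads, so the values of single family members are uncertain.

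The remaining groups gave 4 risers (8.55% of all genes tested rose), of which Cxcl9 reached the filter only through the T-bet libraries. Cmpk2, a mitochondrial nucleotide kinase gene next to Rsad2, rose (log2 FC 1.37 ± 0.35, FDR = 0.0344), whereas Rsad2, which encodes viperin, was at 1.49 and 1.27 in GFP + Plum, 1.53 and 3.61 in GFP + GATA3, 2.12 and 2.32 in T-bet + Plum and 5.51 and 3.52 in T-bet + GATA3, with overlapping groups (log2 FC 0.73 ± 0.32, FDR = 0.171). The Cmpk2 call held without GFP + GATA3 replicate 2 or T-bet + GATA3 replicate 2 and was lost in the 6 other fits that left out a library (FDR = 0.0525 to 0.101). Xaf1, a pro-apoptotic gene, was at 1.52 to 2.09 CPM without T-bet and 3.21 to 4.98 with it (log2 FC 1.26 ± 0.23, FDR = 0.00931), and Sp100, a component of PML nuclear bodies, was at 4.76 to 7.94 and 9.84 to 13.9 CPM (log2 FC 0.83 ± 0.16, FDR = 0.0115). The Sp100 call was lost without T-bet + Plum replicate 2 and without GFP + GATA3 replicate 2 (FDR = 0.0530 and 0.0544). Cxcl9, a chemokine that attracts TH1 cells and is typical of the response to interferon gamma, rested on few reads, with 43 counts in the T-bet libraries and 4 in the others. That is a 13.3-fold ratio per total count (95% interval 4.84 to 51.1, counting error only, FDR = 0.0142), and the call was lost without T-bet + Plum replicate 1 and without GFP + GATA3 replicate 2 (FDR = 0.0548 and 0.0683). Icam1, an adhesion receptor, and Epsti1 were not called (log2 FC -0.18 and 0.12).

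The T-bet effect was also measured separately without GATA3 (T-bet + Plum versus GFP + Plum) and with it (T-bet + GATA3 versus GFP + GATA3), 2 comparisons that share no library. Without GATA3, 12 members rose and 0 fell (6.2% of all genes were called, 4.04% higher and 2.16% lower), with 5 above the study's fold threshold (3.02% of all genes). With GATA3, 9 members rose and 0 fell (5.77% of all genes were called, 3.73% higher and 2.05% lower), again with 5 above that threshold (2.85%). Irf1, Isg20, Zbp1, Ifitm2, Trim21 and Parp14 rose in both, Irf9, Ddx58, Isg15, Herc6, Dtx3l and Sp100 passed only without GATA3, and Irf8, Ifitm1 and Xaf1 only with it. The median log2 FC of the 38 members was 1.13 without GATA3 and 0.79 with it, against 0.01 over all genes in each, and 35 members had the same sign in both. Without the 5 members that reached the filter only through the T-bet libraries, Zbp1 among them, the medians were 1.01 and 0.73, and 11 and 8 of 33 rose. The effect on Irf1 was 1.69 without GATA3 (FDR = 0.00108) and 0.98 with it (FDR = 0.01101). For Isg20 it was 1.72 without GATA3 (FDR = 0.00174) and 1.21 with it (FDR = 0.00784), and for Sp100 1.19 without GATA3 (FDR = 0.0218) and 0.47 with it (FDR = 0.315). Zbp1 changed alike, by 2.52 without GATA3 (FDR = 0.0238) and 2.52 with it (FDR = 0.0171). The difference between the effects was tested as an interaction, in which 0 members were called by edgeR (0% of all genes) and 0 by DESeq2, and 3 had an unadjusted p under 0.05 (2.58% of all genes, 1.24% higher), with FDRs no lower than 0.9999. These were Ifitm1, Samd9l and Irf1. Samd9l, at 12.2 and 9.45 in GFP + Plum, 17.04 and 13.9 in GFP + GATA3, 16.9 and 19.6 in T-bet + Plum and 10.7 and 12.9 in T-bet + GATA3, was higher with T-bet in the absence of GATA3 and lower in its presence, with log2 FCs of 0.76 without GATA3 (FDR = 0.0762) and -0.38 with it (FDR = 0.367), neither of which was called. Calls in only 1 of the comparisons therefore do not show that the effect of T-bet differed between them. These counts also depended on single libraries. Without GATA3 the 12 became 3 without T-bet + Plum replicate 2 and 4 without T-bet + Plum replicate 1 or GFP + Plum replicate 2, and with GATA3 the 9 became 1, 2 and 3 without GFP + GATA3 replicate 2, GFP + GATA3 replicate 1 and T-bet + GATA3 replicate 1.

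**Figure D5:**
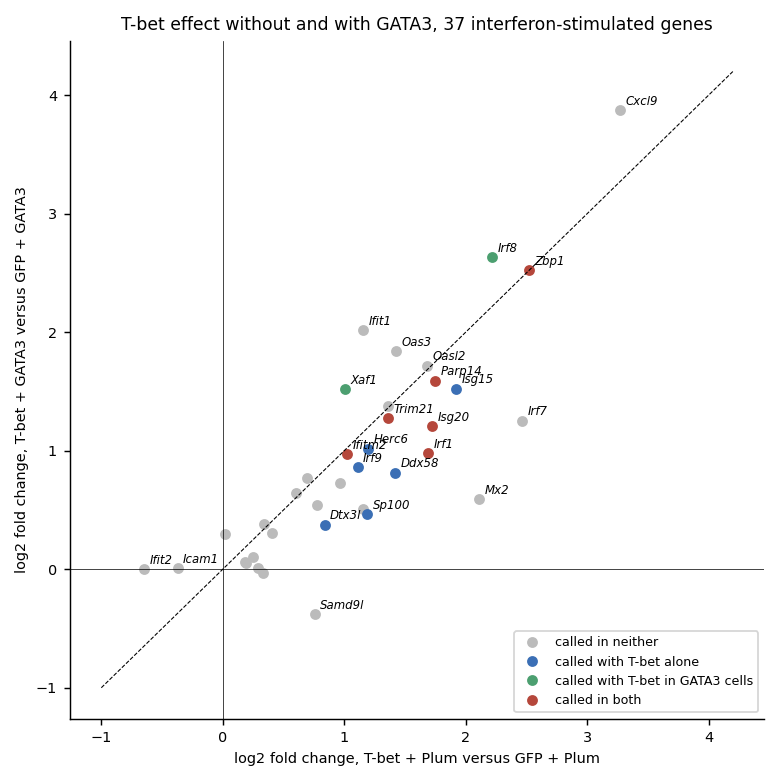
Log2 fold change with T-bet without GATA3 (x axis) and with GATA3 (y axis) for 37 members, coloured by the comparison in which they were called, with equality as the dashed line and Ifitm1 left out. Most points lie to the upper right of the origin, Irf1, Isg20 and Ddx58 lie below the dashed line and Irf8 and Xaf1 above it, and no distance from that line passed the test of the interaction.

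No member was called for GATA3. In GFP + GATA3 versus GFP + Plum 0 members were called by edgeR (0.0203% of all genes were called, all of them higher) and 0 by DESeq2, and 7 had an unadjusted p under 0.05, 5 of them higher with GATA3 (3.7% of all genes had such a p and 2.16% were higher). The higher ones were Isg20, Irf1, Ddx58, Mx2 and Samd9l, with log2 FCs of 0.84 ± 0.19, 0.69 ± 0.16, 0.71 ± 0.25, 1.66 ± 0.61 and 0.51 ± 0.20, and FDRs of 0.487, 0.517 and 1 for the last 3. The lower ones were Ifitm2 and Ifitm1. The median over 38 members was 0.22, against -0.0044 over all genes, and the mean CPM was higher with GATA3 in 28 of them. Where T-bet was present, T-bet + GATA3 versus T-bet + Plum gave 0 calls by edgeR (0.0338% of all genes were called, 0.0203% higher and 0.0135% lower) and 0 by DESeq2. An unadjusted p under 0.05 was found for 4 members (3.78% of all genes, 1.88% higher), of which Ifit1 was higher with GATA3 and Ifitm2, Ifitm3 and Samd9l lower. The median there was 0.08. The lowest value of a member fell most often in GFP + Plum, with 29 of 38 (21 in replicate 2), and the highest most often in T-bet + GATA3 replicate 1, with 19. Shares over all genes were not computed for these counts or for the 28 members with a higher mean CPM. These counts therefore do not set the members apart from other genes.

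Of the 44 members, 17 lie in 7 clusters with less than 100 kb between neighbours. The counts of risers below stand beside 8.55% of all genes tested that rose in the average T-bet effect. In the cluster of Parp14, Dtx3l and Parp9 (chr16:35832874-35972605) 3 of 3 rose, and in that of Ifitm2, Ifitm1 and Ifitm3 (chr7:140954837-141010770) 2 of 3. Rsad2 with Cmpk2 and Oasl2 with Oasl1 each had 1 riser of 2. The clusters of Ifit2, Ifit3 and Ifit1 (chr19:34550694-34650009), Mx1 with Mx2, and Oas2 with Oas3 held none. Exons of 10 members overlap genes on the opposite strand, namely Irf1, Irf7, Oasl1, Eif2ak2, Adar, Dhx58, Usp18, Parp9, Dtx3l and Icam1, and reads of such pairs could be assigned to either gene. The same holds for Irf9, Ifitm2, Herc6, Parp14, Rtp4 and Sp100, whose exons overlap those of another gene on the same strand.

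A further list of 28 genes known to respond to interferon gamma, also drawn up with earlier results known, held 27 in the data and 24 tested. Of these, 17 rose and 1 fell in the average T-bet effect, where 8.55% of all genes rose and 6.61% fell. Some of the genes could reach the filter only through the T-bet libraries, which requires them to differ. Such were Tgtp1, Ifi47, Gbp5 and Gbp7, with 0, 1, 3 and 4 counts over the libraries without T-bet. The count was not repeated without such genes, so it is not a like comparison with the shares of all genes. The immunity-related GTPase gene Tgtp1 had no counts without T-bet and was at least 30.5-fold higher with it, Igtp was 16.2-fold higher (log2 FC 4.02 ± 0.24, FDR = 3.82e-05), and the guanylate-binding protein gene Gbp2 was 44.01-fold higher (log2 FC 5.46 ± 0.38, FDR = 9.32e-05). The antigen peptide transporter genes Tap1 and Tap2 rose by log2 FCs of 1.27 and 1.12. Cd274, which encodes PD-L1, fell by 0.60 on the log2 scale (FDR = 0.00785). Cxcl10, a chemokine that types I and II interferon both induce, was not called (log2 FC 0.93 ± 0.49, FDR = 0.2604). Of 23 relatives of the members by family, 21 were in the data and 8 were tested, and 5 rose (8.55% of all genes): Oas1b, Oas1c, Trim30a, Trim30d and Irf2, the last with log2 FC 0.68 ± 0.11, FDR = 0.00528.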

How the data were processed

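RNA-seq of 4 EL4 lines was analysed, with 2 libraries per line, fewer than the replicates that the study states for its RNA-seq comparison. Groups and replicate numbers came from the sample titles. The authors trimmed paired-end reads with Trim Galore after FastQC and quantified transcripts with kallisto on Gencode models of GRCm38 (M18 by the deposited labels, M20 by the methods), and deposited estimated counts and TPM per transcript. For each gene, the deposited estimated counts of its transcripts were added and then rounded, and the deposited TPM were added. Effective lengths served for an alternative only.

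Testing used edgeR 4.0.16 under R 4.3.3 (filterByExpr by line, TMM, quasi-likelihood test, 1 fit over 8 libraries, Benjamini-Hochberg adjustment over 14791 genes). The filter required about 0.663 CPM in 2 libraries. Approximate SEs were the log2 FC over the root of its F statistic. CPM used TMM-scaled totals. The members and all lists were chosen with earlier results of these data known. A few genes of the signalling and marker lists are not reported here. Described in full were members called in a T-bet comparison, the 5 factors, and the 6 with the highest mean TPM. The stretches printed were chosen after the motif search. Alternatives were DESeq2 1.42.0, RLE scaling, no filter, offsets for transcript length, a replicate block, a fit to only the lines compared, omission of each library in turn and the study's fold threshold. The scripts were tested on simulated data. Both libraries of each line were kept as separate replicates, since their counts differed beyond sampling noise (chi-square over its degrees of freedom, 10.9 to 32.5).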

Additional observations from a re-analysis of the deposited data

How the results depend on the processing

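The 21 members called in the average T-bet effect were also 21 with DESeq2 and with RLE scaling, 20 with offsets for transcript length, 26 without the filter, and between 16 and 21 when a library was left out. With the study's fold threshold added they were 8. Calls among all genes moved too, from 2242 in the main fit to 3179 without the filter and 1936 with offsets for transcript length. With DESeq2 and with RLE scaling they were 2233 and 2229. For T-bet without GATA3 the 12 became 22 without the filter, 5 with the fold threshold and 3 to 10 with a library left out. For T-bet with GATA3 the 9 became 19, 5 and 1 to 10. A line left with 1 library was assumed to vary like the others. Without the filter, 2 members were called for GATA3 alone (Ifitm1, Ifitm3), 2 for GATA3 with T-bet (Ifit1, Ifitm3) and 1 for the interaction (Ifitm1). The cause of these shifts was not tested. The log2 FC of Bst2 ran from -0.0315 without T-bet + GATA3 replicate 2, through -0.0039 without GFP + Plum replicate 1, to 0.365 without GFP + Plum replicate 2. Of the 21 called members, 14 kept an FDR of at most 0.05 under every alternative fit, which leaves the fold threshold aside. Parp9, Sp100, Dtx3l, Cxcl9, Irf7, Cmpk2 and Stat2 did not.

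Same-numbered libraries of different lines deviated together weakly, with correlations of -0.0455 to 0.302, so the numbers were not taken as pairs. With the replicate block, 22 members were called on average, 16 without GATA3, 12 with GATA3, and 0 for GATA3 alone, GATA3 with T-bet and the interaction. Among all genes the block gave 3063 calls in the average T-bet effect, against 2242 in the main fit, so replicate numbers may share some variation.

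With 2 harvests of 1 line per group, a member that did not reach about 0.663 CPM in 2 libraries was not tested, and its absence is not shown.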
